A study of Homo sapiens with 8 samples.

Results

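The genes described here are 8 that encode acute phase and secreted defense proteins, namely *SAA1*, *SAA2*, *PTX3*, *LCN2*, *C3*, *CFB*, *SLPI* and *PI3*. They were taken by gene symbol from the table of 13842 genes measured in the series, in which all 8 were found. They had been chosen by their measured expression in these same libraries, since the list was drawn up with earlier results of the libraries in view. For these 8 genes the values below are therefore a description. Whether a gene passed the thresholds of a fit across all genes is stated, but no p-value is given for it.

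RNA-seq had been performed on MCF10A, an immortalized line of normal breast epithelium, and on DCIS.COM, a line of ductal carcinoma in situ derived from the MCF10A series. Each line was transduced by lentivirus with the empty vector (pLOC-empty) or with the same vector carrying the long noncoding RNA *MALINC1* (pLOC-*MALINC1*), and all 4 groups were under blasticidin selection. Every group had 2 libraries, and the labels do not say whether these came from separate cultures, so the spread between them may be technical. The groups were stably transduced populations grown on plates to subconfluence, and the sources used here do not say that single clones were picked. The medium of MCF10A held horse serum, epidermal growth factor, hydrocortisone, insulin and cholera toxin, whereas that of DCIS.COM held horse serum without these additions. A difference between the lines and a difference between their media cannot be told apart.

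The acute phase response is the rise in secreted defense proteins that follows infection or injury. It is best known in the liver, where cytokines of the IL1 and IL6 families act through NF-kB, C/EBP and STAT factors on the promoters of these genes. Epithelia, that of the breast included, make many of the same proteins locally. Among them are the serum amyloids A and the long pentraxin PTX3, the siderophore-binding lipocalin LCN2, the complement proteins C3 and factor B, and the antiproteases SLPI and elafin (the product of *PI3*), which guard tissue against neutrophil elastase.

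The promoters are shown because they are where those factors would act. RefSeq sequences (GRCh38.p14) were at hand for *PTX3* (chr3:157436600-157436849), *LCN2* (chr9:128149203-128149452) and *CFB* (chr6:31945845-31946094), and not for *SAA1*, *SAA2*, *C3*, *SLPI* and *PI3*. Each line below gives the 250 bases before the annotated start, 5′ to 3′ on the plus strand, which is the strand of all 3 genes. Capitals mark matches, on either strand, to the motifs of NF-kB (GGGA and CC with 4 bases of any kind between them), C/EBP (TTGCNNAA), AP-1 (TGANTCA) or STAT factors (TTCNNNGAA).
PTX3: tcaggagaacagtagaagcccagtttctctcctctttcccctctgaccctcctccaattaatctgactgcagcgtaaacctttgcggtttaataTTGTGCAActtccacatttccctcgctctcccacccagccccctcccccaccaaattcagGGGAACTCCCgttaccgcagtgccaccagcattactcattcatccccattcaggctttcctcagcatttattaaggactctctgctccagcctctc
LCN2: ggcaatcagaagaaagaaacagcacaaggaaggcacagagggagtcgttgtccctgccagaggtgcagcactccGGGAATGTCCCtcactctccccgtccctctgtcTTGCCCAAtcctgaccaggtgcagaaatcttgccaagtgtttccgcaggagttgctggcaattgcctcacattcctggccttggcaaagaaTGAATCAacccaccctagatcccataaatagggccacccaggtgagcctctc
CFB: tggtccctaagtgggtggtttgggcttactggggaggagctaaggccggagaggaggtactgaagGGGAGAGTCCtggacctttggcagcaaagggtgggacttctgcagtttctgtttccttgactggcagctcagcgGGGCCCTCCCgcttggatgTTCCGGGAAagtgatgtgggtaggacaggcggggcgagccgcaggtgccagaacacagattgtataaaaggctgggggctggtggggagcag

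All 3 windows held the letters of the NF-kB motif. In *PTX3* they were GGGAACTCCC, from base -96 to -87 before the start, which matched on both strands, and a C/EBP match lay farther upstream from -156 to -149. In *LCN2*, overlapping NF-kB matches on the 2 strands spanned -176 to -166, followed by a C/EBP match from -143 to -136 and an AP-1 match from -52 to -46. *CFB* had NF-kB matches from -185 to -176 and from -111 to -102 and a STAT match from -92 to -84. Among 35116 RefSeq promoters of the same length, 22.6% held the NF-kB letters, 9.05% those of C/EBP, 6.57% those of AP-1 and 6.57% those of STAT factors, so that matches of this kind are common. The motifs were chosen after the expression values had been seen, and a match describes letters, not binding.

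The libraries held between 20604377 and 37550457 reads on genes, of which the 7SL RNAs took 8.22% to 15.7%. Levels are given as CPM, the read count scaled to a normalized library size, computed from whole reads recovered from the deposited log2 CPM, with the 2 libraries of a group in replicate order. *MALINC1* itself had 1 and 1.51 CPM in MCF10A pLOC-empty and 13.2 and 11.7 CPM in MCF10A pLOC-*MALINC1*. In DCIS.COM it had 1.35 and 1.15 CPM with pLOC-empty and 24.5 and 19.2 CPM with pLOC-*MALINC1*, so that the libraries fitted the vector in their labels. All 9 markers of breast epithelium that were looked for were present. Of the markers of other cell types, 4 of 6 for leukocytes (*PTPRC*, *CD3E*, *LYZ* and *MPO*), 4 of 5 for fibroblasts, 2 of 3 for endothelium and 4 of 4 for hepatocytes were not among the genes of the table. In bulk RNA, fewer expressing cells and less RNA per cell cannot be told apart.

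With *MALINC1*, 5 of the 8 genes fell in DCIS.COM (*SAA1*, *SAA2*, *PTX3*, *LCN2* and *C3*), and 1 of 8 rose in MCF10A (*PTX3*). Here and below a gene rose or fell if limma gave it an adjusted p below 0.01 over all genes and a change over 2-fold. Of all 13842 genes tested, 4.53% passed in DCIS.COM (3.08% lower and 1.44% higher) and 5.50% in MCF10A (2.99% higher and 2.51% lower). Since responses of these libraries were in view when the genes were listed, nothing is read from these counts. In DCIS.COM all 8 log2 fold changes were below 0, with a median of -2.53 against 0.0089 over all genes, and it was the same with *PTX3* set at 3 reads in each pLOC-*MALINC1* library. In MCF10A, 5 were above 0 and 3 below, with a median of 0.27. The shares of all genes on each side of 0 are not given, so nothing is read from these signs either.

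**Figure D1:**
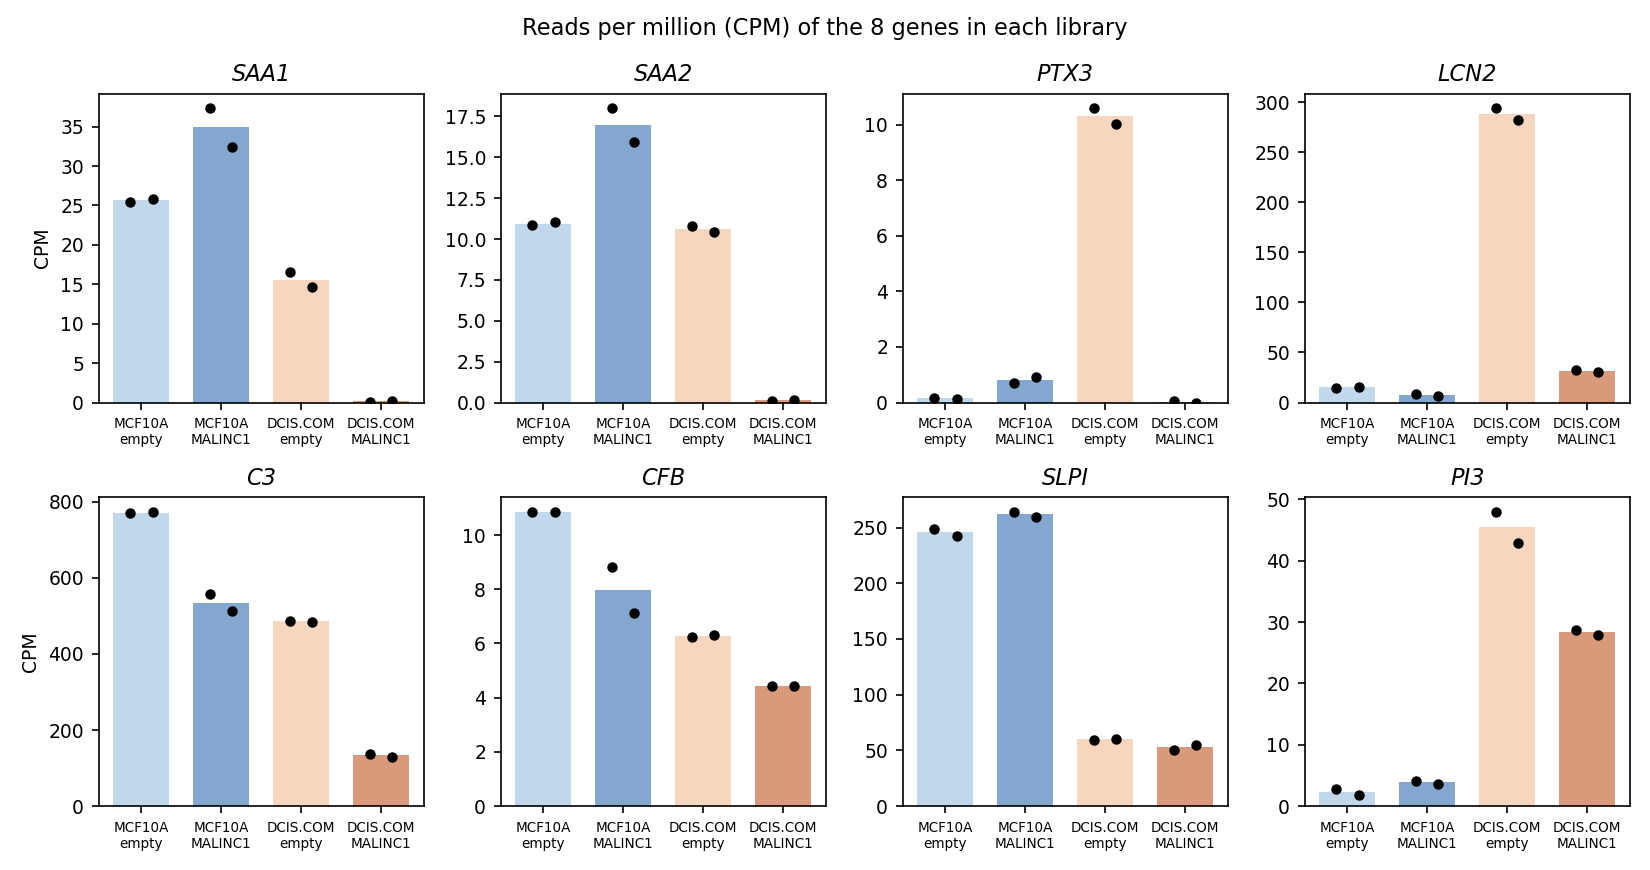
Level of each gene in CPM (vertical axes, linear and starting at 0, each with its own scale) in the 4 groups. Points are single libraries and bars are means of 2 libraries. The bars of SAA1, SAA2 and PTX3 in DCIS.COM pLOC-MALINC1 are close to 0, and LCN2 is highest in DCIS.COM pLOC-empty at 294 and 282 CPM.

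*SAA1* and *SAA2* encode the acute phase serum amyloids A, small apolipoproteins that are carried on high-density lipoprotein and attract leukocytes. In GRCh37, *SAA1* lies on the plus strand at chr11:18287807-18291524 and *SAA2* on the minus strand at chr11:18260770-18270215, 17591 bases away. *SAA1* had 16.5 and 14.7 CPM (354 and 307 reads) in DCIS.COM pLOC-empty and 0.117 and 0.207 CPM (4 and 7 reads) in DCIS.COM pLOC-*MALINC1*. The gene was all but silent in both pLOC-*MALINC1* libraries. By reads it was 96.6-fold lower (95% interval 53.7 to 195, an exact interval for counting error only), and the fitted log2 fold change was -6.10 (SE 0.16). *SAA2* had 10.8 and 10.4 CPM (231 and 218 reads) in DCIS.COM pLOC-empty and 0.0874 and 0.177 CPM (3 and 6 reads) in DCIS.COM pLOC-*MALINC1*. It too was near its lowest measurable level with *MALINC1*, 80.2-fold lower by reads (95% interval 41.9 to 177), with a fitted log2 fold change of -5.75 (SE 0.18). At these few reads the fitted sizes depended on the processing. They ran from -6.52 to -3.83 for *SAA1* and from -6.25 to -3.36 for *SAA2* under the alternatives.

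In MCF10A the serum amyloids were higher with *MALINC1* in both libraries, without passing the thresholds. *SAA1* had 25.4 and 25.9 CPM with pLOC-empty and 37.3 and 32.4 CPM with pLOC-*MALINC1*, which gave 0.44 on the log2 scale (SE 0.16, 95% confidence interval 0.091 to 0.79). *SAA2* had 10.8 and 11.03 CPM with pLOC-empty and 18.0 and 15.9 CPM with pLOC-*MALINC1*, which gave 0.63 on the log2 scale (SE 0.18, 95% confidence interval 0.23 to 1.03). Both changes were under 2-fold.

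The order of the groups was the same for both genes. Levels ran from MCF10A pLOC-*MALINC1* through MCF10A pLOC-empty and DCIS.COM pLOC-empty to DCIS.COM pLOC-*MALINC1*. Only the last step of this order passed the thresholds, and for *SAA2* the pLOC-empty groups of the lines stood side by side, at a log2 difference (DCIS.COM minus MCF10A) of -0.045 with a 95% confidence interval of -0.44 to 0.35. Reads of the pair can be hard to assign, since 24.9% of the 76-base words in *SAA1* transcripts also occur in those of *SAA2*, and 13.4% of the *SAA2* words in those of *SAA1*. The sources used here do not say how reads that match both were counted, and *SAA2* also overlaps the *SAA2-SAA4* readthrough gene on its own strand. Their profiles had a Pearson correlation of 0.997 over the 8 libraries on the log2 scale. This likeness may therefore not be that of 2 separately measured genes, and the part of shared reads in it was not tested.

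*PTX3*, a soluble pattern recognition molecule that binds microbes and complement C1q, moved in opposite directions in the lines. It lies on the plus strand at chr3:157154639-157161422 (GRCh37), within *VEPH1* on the other strand. DCIS.COM pLOC-empty had 10.6 and 10.0 CPM (227 and 210 reads), whereas DCIS.COM pLOC-*MALINC1* had 2 reads in one library and 0 in the other. By reads *PTX3* was 351-fold lower with *MALINC1*, with a 95% interval of 96.7 to 2910. Set at 3 reads in each pLOC-*MALINC1* library, it was 117-fold lower. The fitted log2 fold change of -6.75 ran from -8.30 to -3.46 under the alternatives. In MCF10A it had 0.172 and 0.133 CPM (5 and 3 reads) with pLOC-empty and 0.697 and 0.907 CPM (25 and 24 reads) with pLOC-*MALINC1*. This rise, 5.07-fold by reads (95% interval 2.38 to 12.4) with a fitted log2 fold change of 1.96 (SE 0.30), rested on few reads. It fell below 2-fold, to a log2 fold change of 0.99, when 0.5 CPM was added before the logarithm. The strand setting of the counting is not given in the sources used here, and without strand, reads of *PTX3* and *VEPH1* cannot be told apart where their exons overlap. *VEPH1* had 11.1 and 10.1 CPM with pLOC-empty and 7.81 and 7.36 CPM with pLOC-*MALINC1* in DCIS.COM, and in MCF10A 2.62 and 3.72 CPM with pLOC-empty and 1.59 and 1.74 CPM with pLOC-*MALINC1*.

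*LCN2* encodes lipocalin 2, which withholds iron from bacteria by binding their siderophores, and lies at chr9:130911350-130915732 (GRCh37, plus strand). DCIS.COM pLOC-empty had 294 and 282 CPM, and DCIS.COM pLOC-*MALINC1* had 32.5 and 30.2 CPM. The gene fell 9.18-fold (log2 fold change -3.20, SE 0.085), and both pLOC-empty libraries stood far above the others. In MCF10A it had 15.0 and 15.1 CPM with pLOC-empty and 8.72 and 6.95 CPM with pLOC-*MALINC1*. This log2 fold change of -0.95 (SE 0.085) had the same direction but stayed under 2-fold, and without the pLOC-*MALINC1* replicate 1 library it passed the thresholds at -1.11. With *MALINC1*, *LCN2* in DCIS.COM was still 3.99-fold above MCF10A with the same vector.

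*C3* and *CFB* belong to the alternative pathway of complement, in which factor B supplies the protease that cleaves C3. *C3* (chr19:6677715-6730573, minus strand, GRCh37) had 487 and 484 CPM in DCIS.COM pLOC-empty and 137 and 130 CPM in DCIS.COM pLOC-*MALINC1*. It fell 3.64-fold (log2 fold change -1.87, SE 0.041). In MCF10A *C3* had 770 and 774 CPM with pLOC-empty and 558 and 512 CPM with pLOC-*MALINC1*. The log2 fold change of -0.53 (SE 0.041) did not reach 2-fold. Of its 76-base words, 10.1% also occur in a lncRNA annotated on the same strand.

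*CFB* had small differences of like size in both lines. It had 10.9 and 10.8 CPM in MCF10A pLOC-empty and 8.83 and 7.14 CPM in MCF10A pLOC-*MALINC1*. In DCIS.COM it had 6.25 and 6.30 CPM with pLOC-empty and 4.43 CPM in each pLOC-*MALINC1* library. The log2 fold changes were -0.45 (SE 0.12) and -0.50 (SE 0.12), under 2-fold. They differed by -0.048 between the lines, with a 95% confidence interval of -0.41 to 0.31. *CFB* (chr6:31913427-31919863, plus strand, GRCh37) overlaps *C2* and a readthrough gene with which it shares 34.0% of its 76-base words, so its level is uncertain.

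*SLPI* and *PI3* encode small antiproteases with whey acidic protein domains, and lie 75694 bases apart in GRCh37 (chr20:43880880-43883205, minus strand, and chr20:43803543-43805185, plus strand). *SLPI* had 249 and 242 CPM in MCF10A pLOC-empty and 264 and 259 CPM in MCF10A pLOC-*MALINC1*. In DCIS.COM it had 59.2 and 60.6 CPM with pLOC-empty and 50.4 and 55.2 CPM with pLOC-*MALINC1*. Its log2 fold changes with *MALINC1*, 0.091 (SE 0.043) in MCF10A and -0.18 (SE 0.043) in DCIS.COM, were the smallest in size among the 8 genes, and the lines stood well apart under either vector.

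*PI3* showed the opposite order of the lines. It had 2.79 and 1.82 CPM in MCF10A pLOC-empty and 4.15 and 3.63 CPM in MCF10A pLOC-*MALINC1*, against 47.99 and 42.9 CPM in DCIS.COM pLOC-empty and 28.8 and 27.9 CPM in DCIS.COM pLOC-*MALINC1*. The log2 fold changes were 0.77 (SE 0.16) in MCF10A and -0.68 (SE 0.16) in DCIS.COM, both under 2-fold and of opposite sign. Without the MCF10A pLOC-empty replicate 1 library, the first rose to 1.07 and passed the thresholds.

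**Figure D2:**
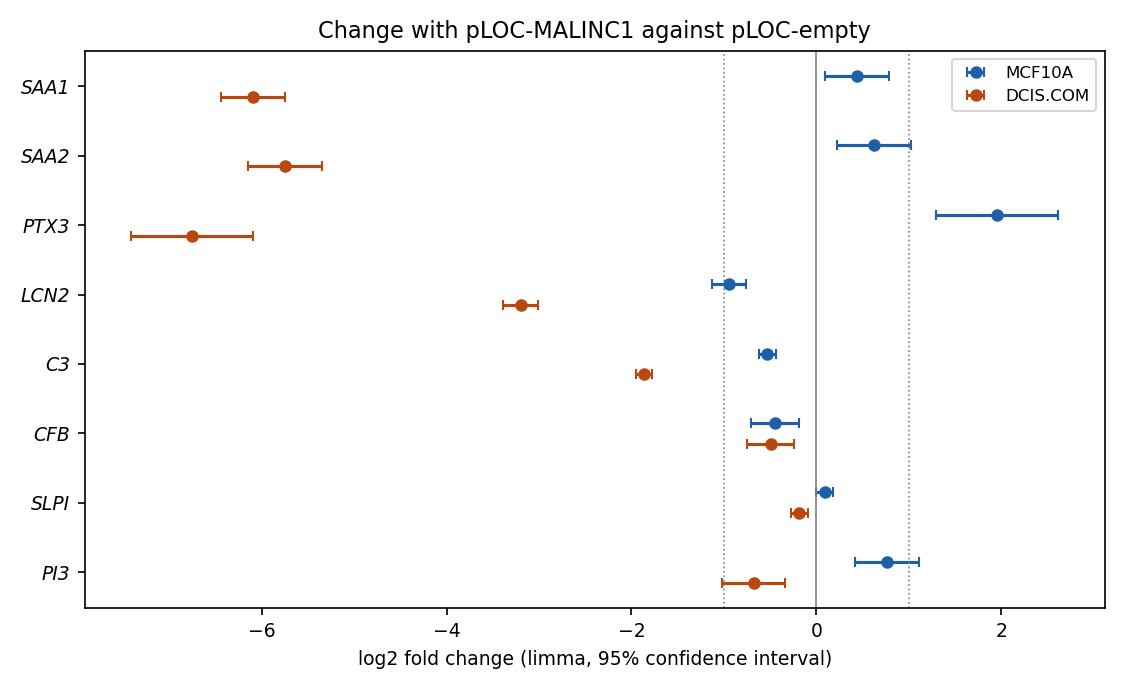
Log2 fold change of pLOC-MALINC1 against pLOC-empty (horizontal axis) for each gene in MCF10A and DCIS.COM. Points are limma estimates from 2 libraries a group, bars are 95% confidence intervals, and dotted lines mark a 2-fold change. SAA1, SAA2 and PTX3 lie below -5 in DCIS.COM and above 0 in MCF10A, while the 2 points of CFB coincide within their intervals, and the fitted PTX3 point in DCIS.COM rests on 2 reads.

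The responses of the lines were compared by the difference of the log2 fold changes (DCIS.COM minus MCF10A). It was below 0 for all 8 genes, but for *CFB* it was only -0.048 (SE 0.17) and changed sign in 2 of 19 alternatives. The share of all genes below 0 is not given, so nothing is read from these signs. The difference passed the thresholds for 6 of 8 (*SAA1*, *SAA2*, *PTX3*, *LCN2*, *C3* and *PI3*), against 9.20% of all genes (5.22% lower). The median was -1.85, and -0.0071 over all genes. The difference was -6.54 (SE 0.23) for *SAA1* and -6.37 (SE 0.26) for *SAA2*, whose levels were higher with *MALINC1* in MCF10A and lower in DCIS.COM. Under the alternatives it ran from -6.97 to -4.26 for *SAA1* and from -6.89 to -3.94 for *SAA2*, so that its size depended on the processing. It was -8.71 (SE 0.43) for *PTX3*, a fitted value that depends on the prior count, since 1 group held 2 reads in all. For *LCN2* and *C3*, lower with *MALINC1* in both lines, it was -2.25 (SE 0.12) and -1.34 (SE 0.058), and for *PI3* it was -1.44 (SE 0.22). *SLPI*, at -0.27 (SE 0.061), did not reach 2-fold.

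With the empty vector, 4 of the 8 genes differed between the lines, against 28.6% of all genes (15.6% higher in DCIS.COM). *PTX3*, *LCN2* and *PI3* were higher in DCIS.COM, with log2 differences of 5.54 (SE 0.30), 4.25 (SE 0.085) and 4.29 (SE 0.16), and *SLPI* was lower, with -2.03 (SE 0.043). *SAA1* (-0.72), *C3* (-0.67) and *CFB* (-0.78) had lower values in DCIS.COM that stayed under 2-fold. With *MALINC1*, 7 of 8 differed, against 26.6% of all genes (12.2% lower in DCIS.COM), and 5 of them were lower in DCIS.COM. *LCN2* and *PI3* remained higher in DCIS.COM, 3.99-fold and 7.19-fold, while *SAA1* and *SAA2* stood at -7.25 (SE 0.16) and -6.42 (SE 0.18). *PTX3* changed sides, from above MCF10A with the empty vector to 26.8-fold below it by reads with *MALINC1* (95% interval 7.03 to 227, from 2 and 49 reads). Set at 3 reads in each DCIS.COM pLOC-*MALINC1* library, it was 8.93-fold below. This second difference fell to -0.81 on the log2 scale, under 2-fold, when 1 CPM was added before the logarithm. *C3* was 4.01-fold lower in DCIS.COM and *SLPI* 4.95-fold lower. These comparisons share libraries with those of the vectors and are not independent of them.

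**Figure D3:**
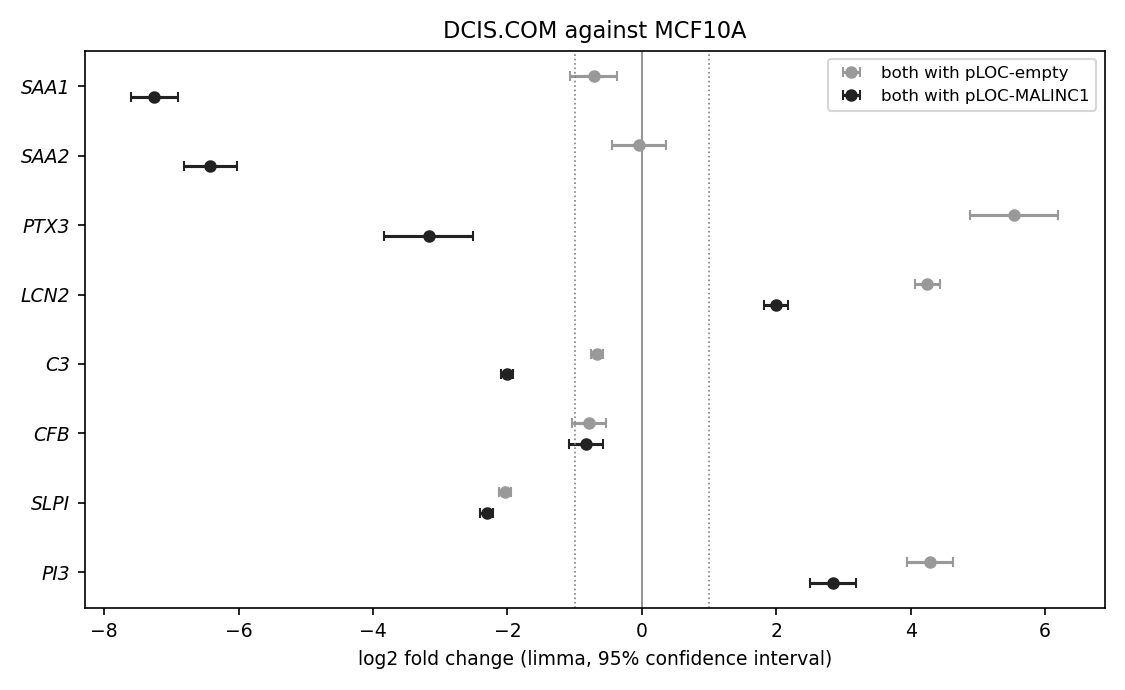
Log2 difference of DCIS.COM against MCF10A (horizontal axis) for each gene, with pLOC-empty in grey and pLOC-MALINC1 in black. Points are limma estimates from 2 libraries a group, bars are 95% confidence intervals, and dotted lines mark a 2-fold difference. PTX3 moves from 5.54 to the other side of 0, and LCN2 and PI3 are above 0 under both vectors.

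Related genes were examined in 8 lists, in which 109 genes were tested. The lists were compiled from general knowledge of each process but with earlier results of these libraries known, so their counts and p values are not independent evidence either. In MCF10A 14 of them rose and 5 fell, and in DCIS.COM 4 rose and 15 fell, which is 17.4% in each line. Over all genes the shares were 5.50% in MCF10A (2.99% higher and 2.51% lower) and 4.53% in DCIS.COM (1.44% higher and 3.08% lower), and the counts of single lists below stand beside the same shares. For the difference between the responses 8 were higher and 29 lower in DCIS.COM, 33.9% against 9.20% of all genes (3.98% higher and 5.22% lower). The adjusted p values given with these genes are those of limma over all 13842 genes, and the genes named first are the largest changes of each list at 5 CPM or more in the higher group. Other genes past the thresholds, at lower levels, were named after their values were seen. A median with limits sets a group with 3 reads or fewer in every library to 3 reads a library, and leaves out a gene that this leaves without a difference.

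Of 6 other acute phase proteins, 2 fell in DCIS.COM and 2 rose in MCF10A (median log2 fold changes -0.47 and 0.078, and -0.0020 in MCF10A with limits). *SERPINA1*, which encodes the elastase inhibitor alpha-1-antitrypsin, had 162 and 171 CPM in DCIS.COM pLOC-empty and 4.40 and 4.43 CPM in DCIS.COM pLOC-*MALINC1* (log2 fold change -5.21, SE 0.11, adjusted p = 7.80e-12). The copper carrier ceruloplasmin, *CP*, fell in the same line from 67.9 and 70.1 CPM to 4.40 and 4.85 CPM (-3.88, SE 0.20, adjusted p = 1.32e-08). *SERPINA3*, another acute phase protease inhibitor, stayed under 2-fold in DCIS.COM, with 1925 and 1927 CPM with pLOC-empty against 2378 and 2353 CPM with pLOC-*MALINC1*, and rose in MCF10A (1.15, SE 0.030, adjusted p = 4.86e-11). *SERPINA1* also rose in MCF10A (2.61, SE 0.11), to a mean of 2.84 CPM.

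Of 11 further complement components and receptors, 0 rose and 3 fell in DCIS.COM, and 0 rose and 2 fell in MCF10A (medians -0.45 and -0.44, and -0.49 in MCF10A with limits). *ITGB2*, the beta chain of complement receptors, fell in both lines, from 6.996 and 5.39 to 0.437 and 0.384 CPM in DCIS.COM (adjusted p = 1.19e-09) and from 30.8 and 30.4 to 7.41 and 7.48 CPM in MCF10A (adjusted p = 1.92e-07). *C1QTNF1*, a secreted protein with a C1q-like domain, fell in DCIS.COM from 14.1 and 13.03 to 1.08 and 1.18 CPM (adjusted p = 9.91e-08). At lower levels, *C1S* fell in DCIS.COM (-2.74) and *C1R* in MCF10A (-1.08), the proteases of the first complement component. Of 8 complement inhibitors, 2 rose and 1 fell in DCIS.COM and 1 rose in MCF10A (medians -0.13 and 0.13, and 0.11 in MCF10A with limits). Clusterin, *CLU*, and *CD55* rose in DCIS.COM (1.47 and 1.12).

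Of 13 other antiproteases, 1 rose and 1 fell in DCIS.COM, and 2 rose and 1 fell in MCF10A (medians -0.43 and 0.051). The MCF10A genes were the inhibitors *SPINK5* (2.18, SE 0.16) and *CSTA* (1.45, SE 0.062), which rose, and *SERPINA5* (-1.25, SE 0.081), which fell. In DCIS.COM the cystatin *CST6* rose (1.26) to a mean of 1.03 CPM, and *WFDC2* fell to 1 read at most in a pLOC-*MALINC1* library from 24 at most in a pLOC-empty library. Of 10 antimicrobial genes, 1 rose and 2 fell in DCIS.COM, and 3 rose and 1 fell in MCF10A (medians -0.42 and -0.15, and -0.48 in DCIS.COM with limits). *DMBT1*, a scavenger receptor that binds bacteria, fell in DCIS.COM from 24.0 and 24.9 to 0.262 and 0.384 CPM (adjusted p = 2.88e-11). *S100A9*, a subunit of calprotectin, rose in MCF10A from 6.59 and 7.35 to 25.6 and 26.3 CPM (adjusted p = 1.33e-09). At lower levels, its partner *S100A8* (2.48) and *RNASE7* (3.66) rose and *RNASE4* (-1.34) fell in MCF10A, while the mucin *MUC16* (2.76) rose and *ANG* (-1.08) fell in DCIS.COM. The *RNASE7* value rested on 5 reads at most in a pLOC-empty library, and that of *MUC16* on 4.

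Upstream of the acute phase genes, 21 cytokines and receptors had 0 rises and 2 falls in DCIS.COM, and 2 rises and 1 fall in MCF10A (medians -0.0073 and 0.21). The falls were those of *IL1B*, from 12.9 and 13.03 to 2.39 and 2.07 CPM (-2.50, SE 0.22, adjusted p = 1.96e-06), and *IL1A*, from 20.6 and 19.4 to 4.84 and 4.35 CPM (-2.11, SE 0.100, adjusted p = 7.87e-09), the agonists of the IL1 receptor. In MCF10A *LIF*, of the IL6 family, rose from 3.52 and 3.98 to 13.5 and 12.9 CPM (adjusted p = 6.19e-09), and so did the receptor chain *IL1RAP* (1.15, SE 0.039, adjusted p = 4.29e-10). The fall in MCF10A was that of *IL22RA1* (-1.19), from a mean of 2.62 CPM, and *IL1A* and *IL1B* did not pass there.

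Of 28 transcription factors and inhibitors of this response, 0 rose and 3 fell in DCIS.COM, and 3 rose and 0 fell in MCF10A (medians -0.26 and 0.039). The C/EBP factor *CEBPD* fell in DCIS.COM from 20.9 and 20.4 to 9.35 and 7.63 CPM (-1.28, SE 0.100, adjusted p = 6.50e-07). *ZC3H12A*, an RNase that degrades cytokine mRNAs, fell with it (-1.70, SE 0.089, adjusted p = 1.78e-08), as did *SOCS3*, an inhibitor of STAT signaling (-1.73). In MCF10A the AP-1 subunits *FOSL1* and *FOS* rose, from 7.83 and 7.70 to 25.7 and 27.2 CPM (adjusted p = 1.77e-08) and from 3.86 and 4.03 to 12.3 and 12.4 CPM (adjusted p = 8.70e-07). The third rise was that of *CEBPA*, from 0 reads in each pLOC-empty library to 7 at most, which shows a rise of at least 1.52-fold only. Not all AP-1 subunits rose in MCF10A. There *JUN* went from a mean of 166 to 88.1 CPM and *JUNB* from 130 to 111 CPM (-0.91 and -0.23), both under 2-fold. In DCIS.COM they had 0.59 and 0.36, also under 2-fold. The NF-kB subunits did not pass in either line. In DCIS.COM the log2 fold changes were 0.17 for *RELA*, -0.51 for *RELB*, -0.26 for *REL*, -0.054 for *NFKB1* and -0.70 for *NFKB2*, and in MCF10A they were 0.032, 0.27, -0.062, 0.045 and -0.080. *STAT3*, which did not pass either, had -0.50 in DCIS.COM and 0.016 in MCF10A, and *NFKBIZ*, a coactivator of NF-kB at *LCN2*, had -0.96 and -0.28. These genes were named after their values were seen.

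Of 12 receptors and partners of the 8 proteins, 0 rose and 1 fell in DCIS.COM and 1 rose in MCF10A. The fall was that of *TGM2*, the transglutaminase for which elafin is a substrate, from 57.9 and 62.7 to 7.95 and 7.36 CPM (adjusted p = 1.32e-08). *TLR4*, the endotoxin receptor, rose in MCF10A from 5.48 and 5.40 to 14.6 and 13.4 CPM (adjusted p = 3.97e-08). The list medians were 0.19 in DCIS.COM and -0.038 in MCF10A, and 0.17 and -0.075 with limits.

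**Figure D4:**
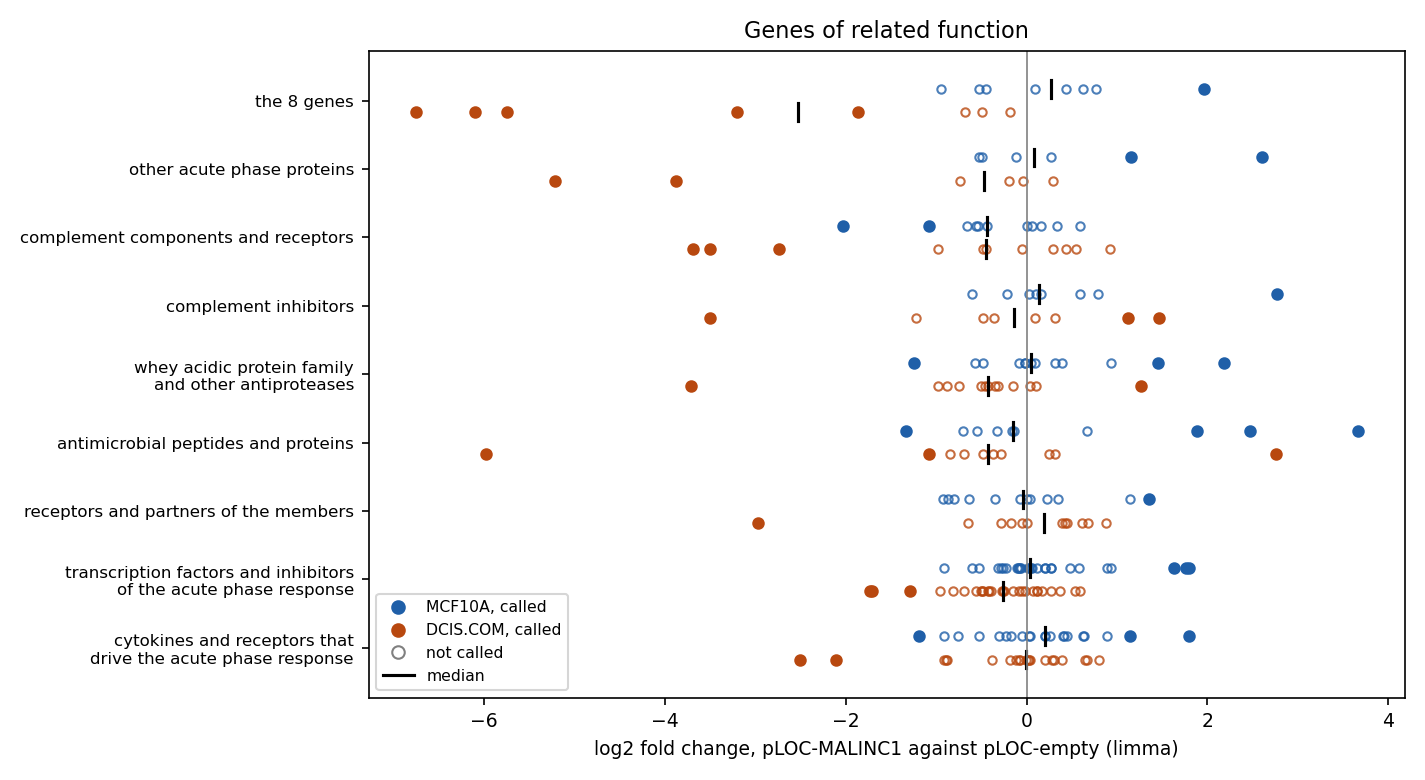
Log2 fold change of pLOC-MALINC1 against pLOC-empty (horizontal axis) for the 8 genes and for 8 lists of related genes, with MCF10A in blue and DCIS.COM in orange. Filled points passed both thresholds, open points did not, and bars are medians of fitted values. Over the 109 listed genes, filled points number 14 above and 5 below 0 in MCF10A and 4 above and 15 below 0 in DCIS.COM.

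*PECAM1*, the only endothelial marker in the table, had 6.06 to 7.21 CPM in DCIS.COM pLOC-empty and 0.0874 to 0.177 CPM in DCIS.COM pLOC-*MALINC1*, and at most 1.03 CPM in MCF10A. The leukocyte markers *CD14* and *CD68* summed to 4.11 to 4.20 CPM with pLOC-empty and 7.89 to 8.13 CPM with pLOC-*MALINC1* in DCIS.COM, and to 14.04 to 14.28 CPM and 12.9 to 13.7 CPM in MCF10A. The fibroblast marker *COL1A1* had 15.1 to 15.9 CPM with pLOC-empty and 6.61 to 7.38 CPM with pLOC-*MALINC1* in MCF10A, and 1.91 to 2.01 CPM and 1.51 to 1.60 CPM in DCIS.COM. The summed level of the 9 epithelial markers was 6016 to 6118 CPM with pLOC-empty and 6033 to 6218 CPM with pLOC-*MALINC1* in DCIS.COM. In MCF10A it was 19526 to 19684 CPM with pLOC-empty and 26161 to 26801 CPM with pLOC-*MALINC1*. Single epithelial markers did not all follow the sums. With pLOC-empty, *CDH1*, *KRT5*, *KRT14* and *KRT17* were lower in DCIS.COM than in MCF10A. *EPCAM*, *KRT8*, *KRT18* and *TP63* were higher, and the values of *KRT19* overlapped. The part of these markers in the results was not tested.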

How the data were processed

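RNA-seq was performed by the authors on 8 libraries of total RNA. Per the paper's methods, reads were aligned to hg19 with Rsubread, counted on genes with featureCounts and normalized with edgeR. The deposited values are log2 CPM made by the authors with a mean prior count of 2. The strand setting, the filter on low values and tool versions are not given in the sources used here. All values gave whole reads (100%, tolerance 0.02 reads) after the prior was removed, and levels in CPM were computed from these reads. There were 0 columns of other samples, and 346 genes without a symbol stayed in the fit.

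The deposited log2 CPM of genes reaching 0.5 CPM in 2 or more libraries, which kept all 13842, were fitted with limma 3.58.1 (R 4.3.3) as 4 group means with contrasts, eBayes with a trend and Benjamini-Hochberg adjustment over all genes. The thresholds were 0.01 for the adjusted p and 2-fold for the size of the change. The steps were also run on simulated counts with the same dispersion for all genes. The outcome is not given here, so nothing is read from it. Groups came from the labels. The members and lists were chosen with earlier results of these data known. The text names all 8 members, from each list up to 3 genes past the thresholds with the largest change at 5 CPM or more in the higher group, and for each member the 2 genes most like it. Other named genes are stated as such. Some genes are not reported here. Intervals on ratios of reads are exact conditional binomial at 95% and cover counting error only. A limit sets a group with 3 reads or fewer in every library to 3 reads a library. A fold against a group with 0 reads in every library is given only as such a limit. A count test was not run because the deposited unit is log2 CPM. Limma-voom on recovered reads was an alternative. Other alternatives changed the offset, filter, scaling, model, thresholds and libraries. Coordinates are from GENCODE on GRCh37. Python 3.11.15, pandas 2.3.3, scipy 1.17.1 and matplotlib 3.10.9 were used.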

Additional observations from a re-analysis of the deposited data

Results flagged for a closer look

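The response to *MALINC1* differed between the lines for 6 of the 8 genes by the contrast of the 2 responses in limma (adjusted p below 0.01 and over 2-fold, over all 13842 genes). Of all genes, 9.20% passed in this contrast (5.22% lower). The differences of the log2 fold changes, DCIS.COM minus MCF10A, were -6.54 for *SAA1*, -6.37 for *SAA2*, -8.71 for *PTX3*, -2.25 for *LCN2*, -1.34 for *C3* and -1.44 for *PI3*. Because the genes were listed with the responses known, these values are not independent evidence of a difference. *SAA1* and *SAA2* share transcript sequence, and *PTX3* had 2 reads in all in DCIS.COM pLOC-*MALINC1*.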

How the results depend on the processing

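Of 792 values of single genes under the alternatives, 784 kept their direction and their side of the thresholds. The number of the 8 genes past the thresholds in MCF10A was 1, and 0 after adding 0.5 or 1 CPM before the logarithm, where the log2 fold change of *PTX3* was 0.99 and 0.64. It was 5 at an adjusted p below 0.01 with any fold change, and 1 to 2 when single libraries were left out. The count was 2 without the MCF10A pLOC-empty replicate 1 library, where *PI3* was at 1.07, and without the MCF10A pLOC-*MALINC1* replicate 1 library, where *LCN2* was at -1.11. Without a fold threshold the count was 8 in DCIS.COM, and 7 for the lines with the empty vector. Shares of all genes without a fold threshold are not given, so nothing is read from these counts or from the 5 in MCF10A. Adding 1 CPM took *PTX3* to -0.81 between the lines with *MALINC1*, under 2-fold. The difference between the responses for *CFB* changed sign to 0.025 when library totals left out the 7SL RNAs and to 0.10 without the MCF10A pLOC-*MALINC1* replicate 1 library (range -0.20 to 0.10 over the libraries left out). The difference of the lines with pLOC-empty for *SAA2* changed sign to 0.060 without the 7SL RNAs, a scaling that moved the median of all genes by 0.10 in that comparison and by 0.18 with pLOC-*MALINC1*. The cause of these changes was not tested.

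The labels do not tie the replicate numbers of different groups together, and deviations from the group means correlated at -0.067 to 0.038 across genes, so the libraries share only a number. With the replicate number as a block, the counts of the 8 genes past the thresholds were 1, 5, 6, 4 and 7, as without it, and over all genes the calls went from 761 to 759 in MCF10A and from 627 to 634 in DCIS.COM. Depth limits *PTX3* in MCF10A and the serum amyloids and *PTX3* in DCIS.COM pLOC-*MALINC1*, where no library held more than 7 reads of them.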

Other observations

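The genes whose log2 CPM were most like those of each member, among 4534 genes with an SD of 0.5 or more over the 8 libraries, were found by Pearson's correlation. The 8 points share 2 lines and 4 groups, so the values are descriptions. *SAA1* was most like *ST6GALNAC5* (0.998) and *SLC16A3* (0.997), a lactate transporter that had mean levels of 282 CPM in DCIS.COM pLOC-empty and 14.9 CPM in DCIS.COM pLOC-*MALINC1*. *SAA2* was most like *SLC16A3* (0.996) and *FAM160A1* (0.991), and *PTX3* like *DHRS9* (0.994), a retinol dehydrogenase, and *CREG1* (0.990). *LCN2* was most like *STC1* (0.995), which encodes stanniocalcin, and the taurine transporter *SLC6A6* (0.994).

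*C3* was most like the AP-1 subunit *FOSL2* (0.996) and glutamine synthetase, *GLUL* (0.995). From pLOC-empty to pLOC-*MALINC1*, the mean of *FOSL2* went from 65.9 to 15.1 CPM in DCIS.COM and from 137 to 76.7 CPM in MCF10A. *CFB* was most like *SIX2* (0.989) and *YPEL3* (0.988). *SLPI* was most like *WFDC21P* (0.999), a pseudogene of the whey acidic protein family, and *CRYBG2* (0.999), and *PI3* like the proteasome subunit *PSMA3* (0.998) and *ADGRG1* (0.997). Among the 8 genes themselves, *C3* and *SAA1* had a correlation of 0.966, *C3* and *CFB* 0.919, *LCN2* and *PI3* 0.830 and *SLPI* and *PI3* -0.961.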
